A study of Mus musculus with 9 samples.

Results

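Gene expression was compared between the livers of 3 mice with non-alcoholic steatohepatitis (NASH) that had run on a treadmill and 3 mice with NASH that had stayed sedentary. These are all the mice of the groups NASH+Exercise (mice 8, 18 and 22) and NASH (mice 5, 19 and 20), 6 of the 9 mice in the series. The other 3 are healthy animals of the group Control (mice 3, 4 and 29). All 9 were male, wild-type mice of the strain labelled C57/BL. Both NASH groups ate the Ath diet, a cholesterol and cholate feed, for 20 weeks, and the trained mice ran during the last 8 of them, from the age of 20 weeks. Control mice ate normal chow and were sedentary. All mice were fasted overnight before the liver was taken, so every value describes the fasted state of a trained or untrained animal. Each liver gave 1 mRNA library, and p-values therefore measure the spread between these mice only.

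Steatohepatitis combines fat storage in hepatocytes with inflammation and scarring. In a damaged lobule, resident and recruited macrophages release cytokines and chemokines, lymphocytes release interferon gamma, and hepatic stellate cells turn into matrix-producing cells that lay down fibrillar collagen. Hepatocytes meanwhile change their own output of secreted proteins, lipid enzymes and detoxifying enzymes. Much of that output is set by pulses of growth hormone, by the bile acid receptor FXR, by the fatty acid receptor PPAR alpha, by thyroid hormone and by the time of day. Endurance training is used as a treatment of the disease.

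The 6 libraries held 21000325 to 22489680 estimated counts, and 15741 to 16371 genes had at least 1 count in a library. Levels below are CPM, the counts of a gene scaled to a common library size after TMM normalization, always listed for NASH mice 5, 19 and 20 and for trained mice 8, 18 and 22 in that order. A level in CPM depends on the length of the transcript and is used here to compare mice, not genes. TMM factors lay between 1.09 and 1.23 for the NASH mice and between 0.912 and 1.08 for the trained ones. The tissue label held in every library, since the 15 hepatocyte markers summed to 122540.0 to 163850.0 CPM in NASH and 155670.0 to 184690.0 CPM in NASH+Exercise. Of 13 markers of skeletal muscle, pancreas and fat, 8 were listed in the files, 3 of these were at 0 in all 6 mice, and the rest summed to no more than 3.53 CPM in a mouse.

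Trained mouse 22 was less like the other trained mice than the sedentary mice were like each other. The root mean square difference over all tested genes, on the log2 scale, was 0.451 between trained mice 8 and 18. It was 0.555 between trained mice 8 and 22 and 0.505 between trained mice 18 and 22. Trained mouse 8 differed from NASH mouse 20 by 0.443, which is less than from either other trained mouse. Between NASH mice the same measure ran from 0.413 to 0.482, a range that holds trained mice 8 and 18. Trained mouse 22 stood 0.650 to 0.738 away from the NASH mice. Of the genes tested, 171 differed more than 2-fold from the NASH mean in trained mouse 8, 519 in trained mouse 18 and 794 in trained mouse 22. A NASH mouse set against the rest of its group gave 107 to 205 such genes. The first principal component, which held 48.4% of the variance among the 6 mice, ordered them in the same way, with trained mouse 8 at -1.76, trained mouse 18 at -27.3, trained mouse 22 at -46.8 and the NASH mice at 17.4 to 33.0.

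**Figure D1:**
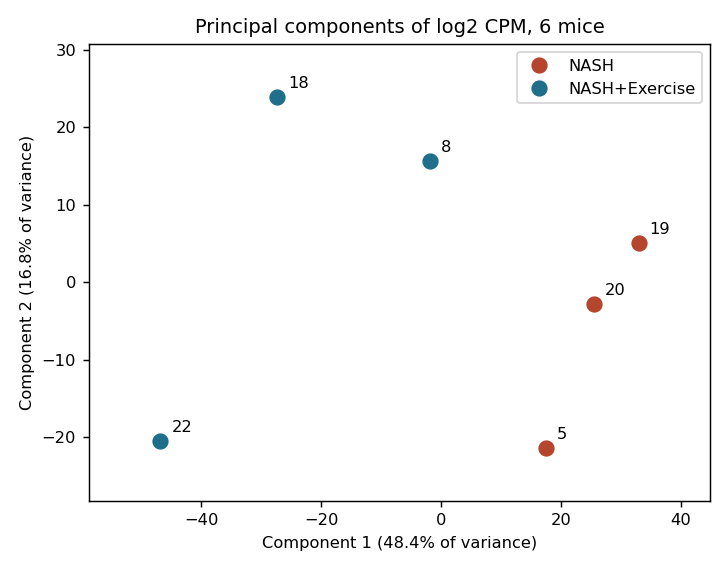
Scores of the 6 mice on the first 2 principal components of log2 CPM over all tested genes, one point per mouse (NASH mice and NASH+Exercise mice in different colours, labelled by mouse number), with the percent of variance on each axis. Trained mouse 8 lies between the sedentary mice and trained mice 18 and 22 on the first component, and trained mouse 22 lies apart from the other trained mice on the second.

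Nr1d1 and Cry1, genes of the circadian clock, set trained mouse 18 apart. Dbp, a clock-controlled transcription factor that peaks once a day, was at 3.16, 19.8 and 24.9 CPM in NASH and 82.5, 2.03 and 58 CPM in NASH+Exercise. Nr1d1, the repressor REV-ERB alpha, was at 64.3, 94.6 and 124 CPM in NASH and 102, 6.47 and 82 CPM in NASH+Exercise. Cry1, a repressor with a later peak, was at 9.68, 8.89 and 7.82 CPM in NASH and 6.81, 33 and 8.24 CPM in NASH+Exercise. Trained mouse 18 thus had the lowest Dbp and Nr1d1 of the 6 mice and the highest Cry1, while the other trained mice were above all NASH mice for Dbp. In Control, Dbp was at 1.18, 1.72 and 6.99 CPM and Cry1 at 27.9, 34.5 and 11.2 CPM, so Control mice 3 and 4 also paired a low Dbp with a high Cry1. Of 20 tested clock genes, 2 were higher and 1 was lower at an unadjusted p under 0.05 (4.6% and 10.7% over all genes). The hour at which each liver was taken is not given in the sources used here, and its part in the results below was not tested.

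Of the 13619 genes tested, 19 or 0.14% passed an adjusted p of 0.05 together with a log2 fold change above 1 in either direction, which is what "called" means here, and only such genes are said to rise or fall. The test was the quasi-likelihood test of edgeR, fitted to all 9 mice, with p-values adjusted by Benjamini-Hochberg. A further 3 genes passed the adjusted p but not the fold, which makes 22 genes (0.162%), 15 higher (0.11%) and 7 lower (0.0514%). The 14 genes that rose (0.103% of those tested) were mostly hepatocyte genes that male mice express more than females: 5 major urinary protein genes and 1 further gene of that family named as a pseudogene (Mup1, Mup7, Mup12, Mup10, Mup22 and Mup-ps16), the steroid and fatty acid enzymes Cyp7b1 and Cyp2u1, the carbonic anhydrase Car3, the peroxisomal coenzyme A hydrolase Nudt7, the transporter Slc22a28 and the complement inhibitor Susd4. The other 2 were C4a, the sex-limited protein of the complement locus, and Orm3, an acute-phase orosomucoid. The 5 genes that fell (0.0367%) were Fgf21, a fasting hormone of the liver; Ccn2, the matricellular protein also named CTGF; Tgtp1, an interferon-induced GTPase; Ugt1a9, a UDP-glucuronosyltransferase; and Ccdc120, a centrosomal coiled-coil protein.

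**Figure D2:**
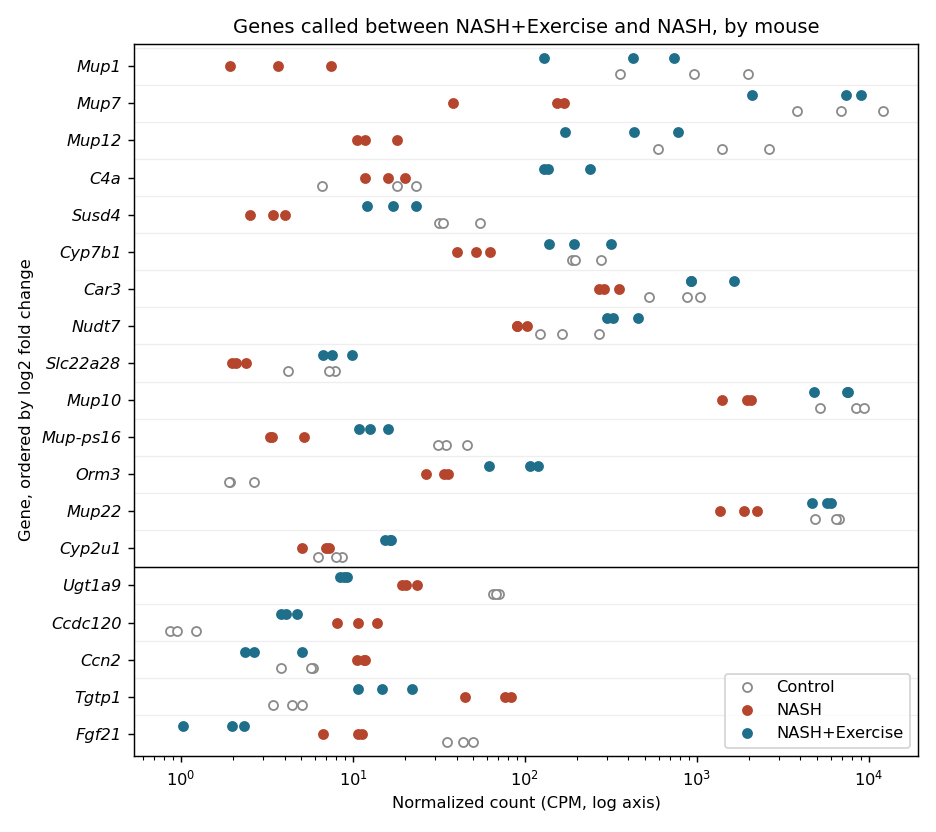
Level of each of the 19 called genes in CPM on a log axis, one point per mouse and one row per gene, with Control, NASH and NASH+Exercise mice in 3 colours and genes ordered by log2 fold change. Above the black line all 3 trained mice lie to the right of the NASH mice in each of the 14 genes that rose, and below it they lie to the left in each of the 5 that fell.

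Among the called genes the adjusted p (edgeR quasi-likelihood, Benjamini-Hochberg) ran from 0.00719 for Ugt1a9 to 0.0491 for Ccdc120, and the next gene, Mup14, was at 0.0516. The list therefore ends within a run of genes with near-equal evidence. One mouse more or less changed it greatly: 34 genes were called without trained mouse 8, 0 without trained mouse 18 and 0 without NASH mouse 20, although 1432 and 1577 genes still had an unadjusted p under 0.05 in those 2 fits by the same test. Without trained mouse 22 it was 2 genes, without NASH mouse 5 it was 1 and without NASH mouse 19 it was 5. The Control mice take part in the filter, the scaling and the estimate of the spread, and 1, 10 and 16 genes were called without Control mouse 3, 4 and 29. DESeq2 on the 6 mice called 204 genes, 78 higher and 126 lower, among them all 19. The study itself used DESeq2 with the same thresholds and reported the same total of 204, with slightly different counts in each direction. No called gene changed direction in any of the fits made here. Called genes included, 626 genes (4.6%) were higher and 1452 genes (10.7%) were lower at an unadjusted p under 0.05, which is called nominal from here on. The 2 groups of 3 mice did not overlap for 1247 genes (9.16%) that were higher and 2036 genes (14.9%) that were lower with training. Of all tested genes, 45.1% were higher and 54.9% lower in mean. The median log2 fold change over them was -0.03. These shares and this median are the background against which each gene group is given below, and no group was tested as a whole. The gene lists were chosen with earlier results of these data known, so counts within them are descriptions only.

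The major urinary proteins, small lipocalins that male mice make in the liver and excrete to carry pheromones, were higher in mean in all 22 members tested. Mup7 was at 38.1, 168 and 153 CPM in NASH and 2092, 7406 and 9023 CPM in NASH+Exercise. Mup1 was at 1.91, 7.49 and 3.66 CPM in NASH and 128, 428 and 739 CPM in NASH+Exercise. Both rose, with log2 fold changes of 5.69 ± 0.80 and 6.62 ± 0.94 (SE), and the lowest trained mouse, number 8, was far above the highest NASH mouse, number 19. Mup12 rose from 10.6, 18 and 11.7 CPM to 171, 428 and 779.7 CPM. In Control these genes stood above the NASH mice as well, with 6934, 12069.6 and 3827 CPM for Mup7 and 1402, 2646 and 598 CPM for Mup12. Mup10 and Mup22 rose by less. Mup10 was at 1409, 1969 and 2054 CPM in NASH and 4786, 7459 and 7594 CPM in NASH+Exercise, and Mup22 was at 1356, 1868 and 2252 CPM in NASH and 4661, 5741 and 5991 CPM in NASH+Exercise. Of the 22 members, 19 were nominal and 20 had groups that did not overlap, with a median log2 fold change of 1.96 (4.6% nominal and 9.16% apart among all genes). Mup20, known as darcin, had the highest CPM of the family and was at 15035, 14990.1 and 17564 CPM in NASH and 20285, 19137 and 24608 CPM in NASH+Exercise, with a narrow gap between the groups. In Control it was lower than in either NASH group, at 8315, 7836 and 4424 CPM. Mup14, Mup15, Mup19, Mup16, Mup11 and Mup2 were among the 10 higher genes with the smallest p that were not called but had a log2 fold change above 1 and groups that did not overlap.

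These genes lie in one cluster on chromosome 4 and are near-identical copies, so reads of one may have been assigned to another. Mup1 spans chr4:60498012-60501960 and Mup7 spans chr4:60066469-60070475 on GRCm38.p6, and the GENCODE vM21 transcripts compared, of 927 bases each, were 98.9% identical, with a longest shared run of 489 bases. Mup1 and Mup12 were 99.4% identical, and Mup1 and Mup22 91.8%. The split of the signal among members is for that reason uncertain, while the summed level of the family does not depend on it. That sum was 22610.0, 24796 and 30049 CPM in NASH and 50486, 72961 and 83740.0 CPM in NASH+Exercise, so each trained mouse stood above each NASH mouse.

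Outside the Mup family, 21 of 22 male-biased liver genes in the list were tested, 6 were called and all 21 were higher in mean. Over all genes 0.103% were called and higher, and 45.1% were higher in mean. This list was chosen with earlier results of these data known, so its counts describe it and are not independent support. Cyp7b1, which hydroxylates oxysterols on the alternative path of bile acid synthesis, was at 40.1, 52.2 and 62.6 CPM in NASH and 137, 193 and 316 CPM in NASH+Exercise. Car3 was at 351, 271 and 289.6 CPM in NASH and 921, 926 and 1640.0 CPM in NASH+Exercise. Nudt7, which degrades coenzyme A in peroxisomes, was at 103, 90.2 and 90.1 CPM in NASH and 327, 301 and 456 CPM in NASH+Exercise. The groups of these 3 genes did not overlap, and the fold changes were 2.06 ± 0.30, 1.94 ± 0.29 and 1.93 ± 0.27 on the log2 scale. Susd4 was at 3.41, 2.52 and 4.04 CPM in NASH and 12, 17 and 23.1 CPM in NASH+Exercise. Slc22a28, an organic anion transporter, was at 2.08, 1.98 and 2.38 CPM in NASH and 6.68, 7.51 and 9.9 CPM in NASH+Exercise. Cyp2u1, a long-chain fatty acid hydroxylase, rose from 6.98, 7.22 and 5.02 to 16.5, 16.5 and 15.3 CPM and was the most even of the group in the trained mice. Its Control level of 8.59, 7.95 and 6.23 CPM was close to that of the sedentary NASH mice, so in this gene the trained mice stood above both other groups. Nudt7 with 122, 164 and 269 CPM in Control was likewise highest with training, while Susd4 at 31.6, 54.8 and 33.3 CPM was higher in Control than with training.

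The 15 male-biased genes that were not called were all higher in mean, with a median log2 fold change of 0.78. Of these, 11 were nominal and 11 had groups apart (4.6% nominal and higher and 9.16% apart and higher among all genes). Hsd3b5, a steroid dehydrogenase made in male liver, was at 42.8, 33.1 and 56 CPM in NASH and 106, 120.3 and 139.7 CPM in NASH+Exercise. Serpina1e, a male-biased member of the alpha-1-antitrypsin family, was at 1967, 1438 and 2035 CPM in NASH and 5880.5, 10759 and 20525 CPM in NASH+Exercise. The groups did not overlap, the trained mice were far apart from each other, and the adjusted p was 0.122 (edgeR quasi-likelihood, Benjamini-Hochberg). Serpina1e has near-identical neighbours in its gene cluster, which makes its own share of the reads uncertain. Gstp1, a glutathione transferase, was at 2849, 1683 and 2708 CPM in NASH and 2920.4, 4242 and 5272 CPM in NASH+Exercise, with trained mouse 8 close to NASH mouse 5.

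Genes that female liver expresses more were lower in mean in 13 of 15, at low levels in these males. Of 25 listed genes, 15 passed the filter, none was called, 8 were nominal and lower and 0 were nominal and higher, and the median log2 fold change was -1.57 (10.7% of all genes were nominal and lower). The flavin monooxygenase Fmo2 was at 14.4, 34.1 and 22.4 CPM in NASH and 7.2, 4.11 and 7.26 CPM in NASH+Exercise. Nipal1, a magnesium transporter, was at 5.36, 4.0 and 11.1 CPM in NASH and 1.22, 1.27 and 0.975 CPM in NASH+Exercise. Neither gene had overlapping groups. Acot3, a peroxisomal thioesterase that is also a PPAR alpha target, was at 3.7, 2.79 and 18.3 CPM in NASH and 1.0, 0.425 and 0.634 CPM in NASH+Exercise and is counted in both lists. Cyp39a1, an oxysterol hydroxylase, was at 19.1, 18 and 19.4 CPM in NASH and 19.4, 13.7 and 19.4 CPM in NASH+Exercise and did not separate the groups. The other 11 members were under 10 CPM in every NASH and NASH+Exercise mouse, where few reads stand behind a value. The 23 listed genes present in the files summed to 65.1, 86.5 and 94.1 CPM in NASH and 40.8, 27.1 and 38.6 CPM in NASH+Exercise. In Control the sum was 303, 219 and 237 CPM, so by this sum the trained mice stood further from Control than the sedentary ones.

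Growth hormone, whose pulses set the sex difference of the liver, acts through its receptor and the transcription factor STAT5. Lifr, the receptor for leukemia inhibitory factor, was at 111, 100.3 and 119 CPM in NASH and 179, 201.2 and 256 CPM in NASH+Exercise. It passed the adjusted p (0.0415, edgeR quasi-likelihood, Benjamini-Hochberg) but not the fold threshold (log2 fold change 0.95 ± 0.15). The growth hormone receptor Ghr was at 247, 239 and 250.1 CPM in NASH and 342, 344 and 406 CPM in NASH+Exercise, so the groups did not overlap. Igf1, the main secreted product of growth hormone action, was at 352, 347 and 388 CPM in NASH and 389.8, 405 and 350.2 CPM in NASH+Exercise and overlapped. Igfbp1, which binds IGF1 and is high in fasting, was at 186, 29.3 and 103 CPM in NASH and 37, 21.4 and 42.9 CPM in NASH+Exercise, with NASH mouse 19 inside the range of the trained mice. Over the 16 members of the axis, 3 were nominal and higher and 3 nominal and lower (4.6% and 10.7% over all genes).

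Fgf21 is a hormone that hepatocytes release in fasting under PPAR alpha and in amino acid or endoplasmic reticulum stress under ATF4. It was at 10.7, 6.67 and 11.2 CPM in NASH and 1.96, 2.31 and 1.02 CPM in NASH+Exercise. The groups were far apart and every trained mouse was below the lowest NASH mouse, a fall with a log2 fold change of -2.42 ± 0.29. In Control it was 50.02, 35.3 and 43.7 CPM, so its order from high to low was Control, NASH and NASH+Exercise. The gene is on the minus strand at chr7:45613890-45615490 (GRCm38.p6). The 200 bases upstream of its RefSeq start (chr7:45615491-45615690) are shown because 2 short motifs linked to stress and nutrient control lie in them, with the motifs in capitals.
Fgf21: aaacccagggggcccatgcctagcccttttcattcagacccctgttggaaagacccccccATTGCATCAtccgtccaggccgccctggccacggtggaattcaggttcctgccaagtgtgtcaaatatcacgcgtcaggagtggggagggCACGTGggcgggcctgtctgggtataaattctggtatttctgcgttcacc
The first is the C/EBP-ATF response element, TGATG and AAT with 1 free base between them, which begins 140 bases before the start and reads on the opposite strand. It was found on either strand in the 250 bases upstream of 0.816% of 32851 RefSeq promoters. The second is the E-box CACGTG 50 bases before the start, a motif that 6.02% of promoters hold. A match of letters is a description of the window and not evidence that a factor was bound.

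Genes under PPAR alpha were lower in mean with training in 27 of 36. None but Fgf21 was called among 36 tested members, of which 15 were nominal and lower and 0 nominal and higher (10.7% and 4.6% over all genes), with a median log2 fold change of -0.24. Without NASH mouse 20 that median was -0.07, against -0.03 over all genes in that fit. The members summed to 9036, 7850 and 12530 CPM in NASH and 8243, 9314 and 9190 CPM in NASH+Exercise, so the sums of the groups overlapped. Cyp4a14, a fatty acid omega-hydroxylase, was at 169, 126 and 803 CPM in NASH and 19.8, 33.7 and 5.8 CPM in NASH+Exercise, against 6184, 4083 and 8442 CPM in Control. Cyp4a10 was at 188, 299.95 and 591 CPM in NASH and 67.5, 141 and 28.8 CPM in NASH+Exercise. Its near-copy Cyp4a31 was at 12.7, 10.7 and 22.4 CPM in NASH and 3.01, 4.39 and 1.32 CPM in NASH+Exercise. For all 3 genes NASH mouse 20 was the highest and trained mouse 22 the lowest. The thioesterase Acot2 was at 6.4, 7.72 and 14.7 CPM in NASH and 3.36, 3.87 and 2.44 CPM in NASH+Exercise. Its relative Acot4 was at 15.4, 11.4 and 23.5 CPM in NASH and 8.07, 7.84 and 8.58 CPM in NASH+Exercise, again with no overlap. Pdk4, a kinase that shuts off glucose oxidation in fasting and was listed among glucocorticoid and fasting genes, was at 6.94, 2.25 and 8.88 CPM in NASH and 1.7, 1.65 and 1.02 CPM in NASH+Exercise. Fabp1, a fatty acid carrier and one of the 3 members with the highest CPM, was at 1092, 1125 and 1771 CPM in NASH and 1534, 1509 and 1569 CPM in NASH+Exercise, overlapping. Plin5, a coat protein of lipid droplets and the member of that list with the smallest p, was at 43, 52.7 and 72.5 CPM in NASH and 31, 42.8 and 34.9 CPM in NASH+Exercise.

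Ugt1a9, which attaches glucuronic acid to phenols and drugs, had the smallest adjusted p of the comparison. It was at 23.7, 19.2 and 20.4 CPM in NASH and 8.38, 8.88 and 9.16 CPM in NASH+Exercise. The values within each group were close and the groups did not overlap, so the fall was estimated tightly at -1.26 ± 0.12 on the log2 scale. In Control it was at 65.2, 70.9 and 67.7 CPM, higher than in both NASH groups. It spans chr1:88070779-88220002 (GRCm38.p6), where the Ugt1a genes share their last exons, so reads from shared exons may have been split among them. No other of the 18 tested UDP-glucuronosyltransferases was called, 5 were nominal and higher and Ugt1a9 was the single nominal one that was lower. Ugt2b1, a male-biased member, was at 234, 274 and 251 CPM in NASH and 416, 527 and 639 CPM in NASH+Exercise. Ugt2b5, one of the 3 with the highest CPM, was at 408, 385 and 543 CPM in NASH and 538, 524 and 496 CPM in NASH+Exercise.

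Genes of the antioxidant regulator NRF2 were lower in mean with training in 16 of 22, several of them glutathione S-transferases. Of the 22, 9 were nominal and lower, 0 were nominal and higher and none was called, with a median of -0.19, which was -0.40 when libraries were scaled by their totals alone and -0.12 without NASH mouse 5. Gstm1 was at 5238, 3362 and 3654 CPM in NASH and 2089, 2242 and 2346 CPM in NASH+Exercise. Gstm3 was at 278, 198 and 122 CPM in NASH and 46.4, 53 and 69.6 CPM in NASH+Exercise. Gsta1 was at 30.2, 20.7 and 15 CPM in NASH and 9.51, 10.5 and 9.21 CPM in NASH+Exercise. The 3 trained mice were below all NASH mice in each, and in Control Gstm3 and Gsta1 were lower again, at 27.3, 21.7 and 10.9 and 5.26, 2.39 and 2.5 CPM. The quinone reductase Nqo1 was at 9.64, 9.93 and 8.93 CPM in NASH and 5.94, 5.43 and 4.19 CPM in NASH+Exercise. Gm3776, a gene of the Gsta family, was at 35.6, 24.1 and 15.3 CPM in NASH and 6.81, 7.74 and 5.26 CPM in NASH+Exercise and had the smallest p of the lower uncalled genes with a log2 fold change beyond 1 and groups that did not overlap. In the wider glutathione transferase family, some were higher instead, such as Gstp2 at 7.02, 6.83 and 6.46 CPM in NASH and 13.4, 14.9 and 29.7 CPM in NASH+Exercise. The microsomal Mgst1 was at 1343, 1735 and 1704 CPM in NASH and 1921, 2126 and 2150.1 CPM in NASH+Exercise. Osgin1, a target with one of the 3 highest CPM values, was at 692, 459.9 and 431 CPM in NASH and 725, 994 and 540.4 CPM in NASH+Exercise and overlapped.

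Tgtp1 belongs to the immunity-related GTPases that interferon gamma switches on in macrophages and hepatocytes and that act against intracellular microbes. It was at 82.8, 44.8 and 76.1 CPM in NASH and 22.2, 14.8 and 10.7 CPM in NASH+Exercise. It fell by 2.09 on the log2 scale (SE 0.30), and each trained mouse was below the lowest NASH mouse, number 19. Its neighbour Tgtp2, whose transcript is 99.3% identical with a shared run of 1040 bases, was at 16.5, 16 and 18.3 CPM in NASH and 8.29, 4.82 and 3.61 CPM in NASH+Exercise, so reads may have been split between them. Igtp, the GTPase also named IRGM3, was at 104, 58 and 116 CPM in NASH and 37.1, 30.5 and 30.5 CPM in NASH+Exercise. Irgm2 was at 139, 79 and 111 CPM in NASH and 62.2, 46.4 and 45.1 CPM in NASH+Exercise. The guanylate-binding protein Gbp2 was at 31.3, 18.5 and 37.4 CPM in NASH and 16.3, 11.9 and 8.29 CPM in NASH+Exercise. All 20 tested GTPases were lower in mean, 10 nominally, with a median log2 fold change of -0.94. Iigp1, with the highest CPM of the list, was at 350.3, 329 and 473 CPM in NASH and 348, 278 and 191 CPM in NASH+Exercise. Gvin1 was at 91.6, 113 and 132 CPM in NASH and 144, 87 and 48.7 CPM in NASH+Exercise. Gm4951 was at 78.8, 91.9 and 99.7 CPM in NASH and 102, 89.4 and 63.8 CPM in NASH+Exercise. In these 3 genes trained mouse 8 lay within or above the range of the NASH mice.

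Tgtp1, Tgtp2, Igtp and Irgm2 are the members of this list shown here because all lie on chromosome 11 and carry the same pair of motifs at the same distance from each other. The windows are the 150 bases upstream of each RefSeq start on GRCm38.p6, read on the gene's strand, and the capitals mark first a GAS motif (TTC and GAA with 3 free bases between them, the type of site through which interferon gamma acts) and then an ISRE motif (GAAA and GAAA with 2 free bases between them, the type of site that interferon regulatory factors bind).
Tgtp1, chr11:48992247-48992396, minus strand: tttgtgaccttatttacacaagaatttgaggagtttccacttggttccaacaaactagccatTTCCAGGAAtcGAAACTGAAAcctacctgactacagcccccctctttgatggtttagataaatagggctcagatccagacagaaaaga
Tgtp2, chr11:49064213-49064362, minus strand: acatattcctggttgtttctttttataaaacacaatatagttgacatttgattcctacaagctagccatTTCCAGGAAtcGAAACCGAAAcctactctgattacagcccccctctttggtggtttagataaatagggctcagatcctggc
Igtp, chr11:58199406-58199555, plus strand: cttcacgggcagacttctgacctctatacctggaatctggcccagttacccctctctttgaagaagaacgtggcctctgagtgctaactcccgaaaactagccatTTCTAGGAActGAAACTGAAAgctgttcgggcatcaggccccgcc
Irgm2, chr11:58214827-58214976, plus strand: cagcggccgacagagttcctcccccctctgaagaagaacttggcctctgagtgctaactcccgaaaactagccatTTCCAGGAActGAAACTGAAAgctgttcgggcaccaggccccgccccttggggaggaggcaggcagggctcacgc
The GAS motif began 88 bases before the start in Tgtp1, 81 in Tgtp2, 45 in Igtp and 75 in Irgm2, and the ISRE motif began 11 bases further on in all of them. Both motifs were searched on both strands of the 250 bases upstream. The first was present in 7.02% of 32851 promoters, the second in 2.98% and both in 0.332%. Of the 20 tested GTPases, 11 had a promoter in the RefSeq table, and 6 of these 11 held the GAS motif, 10 the ISRE motif and 6 both. Among genes of the MHC list, 27 had a promoter, of which 3 held the GAS motif, 3 the ISRE motif and 0 both. A list member was counted if any of its promoter entries held the motif. The shares over all promoters count each entry separately, so the rates are not in the same unit. Whether any of these sites was occupied was not measured.

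Genes of the type I interferon response, which acts against viruses, were lower in mean in 27 of 30 in the trained mice, 12 of the 30 nominally and none called, with a median of -0.45. The nucleic acid sensor Zbp1 was at 39.1, 27.9 and 44.9 CPM in NASH and 18.3, 15.2 and 16.7 CPM in NASH+Exercise. Lgals3bp, a secreted glycoprotein, was at 168, 144 and 167 CPM in NASH and 122, 115 and 139 CPM in NASH+Exercise. Neither of them had overlapping groups. Bst2, a membrane tether for viruses, was at 213, 189 and 243 CPM in NASH and 183, 227 and 267 CPM in NASH+Exercise and did overlap.

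Antigen presentation genes were lower in mean in 33 of 39. Of these 39, 24 were nominal and lower and 1 was nominal and higher, with a median of -0.54. Their log2 fold changes ran from -1.66 to 2.47, so the largest in size was a higher one. The class II chain H2-Eb1 was at 169, 178 and 237 CPM in NASH and 110.03, 76.1 and 90.7 CPM in NASH+Exercise. The class II peptide loader H2-DMa was at 26.8, 26.7 and 43.1 CPM in NASH and 17.8, 13.6 and 14.9 CPM in NASH+Exercise. Tapbp, which loads class I molecules, was at 137, 119 and 146 CPM in NASH and 88.6, 95.6 and 92.8 CPM in NASH+Exercise, and the immunoproteasome subunit Psmb9 was at 28.8, 27.5 and 32 CPM in NASH and 19.6, 14.6 and 22.2 CPM in NASH+Exercise. H2-Q1, a non-classical class I gene, was at 13.1, 17.3 and 18.5 CPM in NASH and 8.73, 5.52 and 6.43 CPM in NASH+Exercise and was among the 10 lower uncalled genes with the smallest p among those with a log2 fold change below -1 and groups that did not overlap. The 3 genes with the highest CPM, all for class I molecules, overlapped. H2-K1 was at 1311, 1182 and 1443 CPM in NASH and 1149.9, 1218 and 1384 CPM in NASH+Exercise, B2m was at 1998, 2331 and 2392 CPM in NASH and 2127, 2369 and 2476 CPM in NASH+Exercise and the liver-made H2-Q10 was at 1155, 1014 and 1137 CPM in NASH and 1117, 1371 and 1437 CPM in NASH+Exercise.

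Ccn2 is a matricellular protein that TGF-beta and the YAP pathway induce in fibrosis. It was at 11.6, 11.7 and 10.5 CPM in NASH and 2.66, 2.36 and 5.02 CPM in NASH+Exercise. It fell by 1.75 on the log2 scale (SE 0.28), and all 3 trained mice were below the NASH mice and within or below the Control range of 3.81, 5.84 and 5.66 CPM. Without trained mouse 18 the adjusted p was 0.172 (edgeR quasi-likelihood, Benjamini-Hochberg). Among 26 TGF-beta and YAP targets, 8 were nominal and lower and none was nominal and higher, with a median of -0.35. Pmepa1, a feedback inhibitor of TGF-beta, was at 10.1, 12.5 and 9.31 CPM in NASH and 7.03, 5.29 and 6.53 CPM in NASH+Exercise. Tgfbi, a matrix protein that TGF-beta induces, was at 93.8, 91.8 and 94.6 CPM in NASH and 70.3, 66 and 63.2 CPM in NASH+Exercise. The receptor kinase Axl was at 86.3, 75.7 and 86.7 CPM in NASH and 64.2, 52.3 and 55.9 CPM in NASH+Exercise. Id2 was at 157, 141 and 138 CPM in NASH and 190.03, 178 and 115 CPM in NASH+Exercise and overlapped.

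The main chains of fibrillar collagen, which activated stellate cells lay down, were lower in every trained mouse, with trained mouse 18 the lowest. Col1a1 was at 68.5, 98.4 and 94.7 CPM in NASH and 44.5, 20.6 and 45 CPM in NASH+Exercise. Col1a2 was at 50.1, 74 and 60.5 CPM in NASH and 36.6, 17.1 and 33.8 CPM in NASH+Exercise. Col3a1 was at 81.4, 119 and 86.1 CPM in NASH and 55.9, 27 and 55.4 CPM in NASH+Exercise. In Control they stood at 3.11, 4.11 and 3.32 CPM for Col1a1 and 7.84, 8.06 and 9.95 CPM for Col3a1, so the trained livers lay between the other groups. None of 29 tested collagen chains was called, 14 were nominal and lower and 1 was nominal and higher, and the median was -0.64. Col18a1, the chain that hepatocytes make, was at 1077, 822 and 946 CPM in NASH and 949, 983 and 1002 CPM in NASH+Exercise and did not separate the groups.

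Matrix proteins and crosslinking enzymes were lower in mean in 30 of 37, with 20 of 37 nominal and lower, 1 nominal and higher and a median of -0.57. The basement membrane linker Nid1 was at 50.2, 42.6 and 32 CPM in NASH and 23, 16.8 and 16.6 CPM in NASH+Exercise. Elastin, Eln, was at 11.3, 19.1 and 9.35 CPM in NASH and 5.72, 3.59 and 3.66 CPM in NASH+Exercise. Lox, which crosslinks collagen and elastin, was at 1.99, 4.73 and 2.89 CPM in NASH and 1.31, 0.85 and 1.02 CPM in NASH+Exercise. Ltbp1, which stores latent TGF-beta in the matrix, was at 4.7, 4.97 and 5.02 CPM in NASH and 2.31, 2.22 and 2.19 CPM in NASH+Exercise, and was the most even within groups of those named. The proteoglycan Bgn was at 231, 253 and 235 CPM in NASH and 159.5, 142 and 189 CPM in NASH+Exercise. Fn1, fibronectin, is also a plasma protein of hepatocytes and was at 1773, 1227 and 1432 CPM in NASH and 1404, 1741 and 1593 CPM in NASH+Exercise, overlapping. Of 18 tested matrix metalloproteinases and their inhibitors, 8 were nominal and lower and none was nominal and higher. Mmp2 was at 8.48, 13 and 8.63 CPM in NASH and 6.55, 3.73 and 5.02 CPM in NASH+Exercise and the inhibitor Timp1 was at 4.03, 6.52 and 7.01 CPM in NASH and 3.4, 1.42 and 2.53 CPM in NASH+Exercise. Adamts5, which cleaves aggrecan and versican, was at 2.91, 5.9 and 3.53 CPM in NASH and 1.18, 1.04 and 0.731 CPM in NASH+Exercise.

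**Figure D3:**
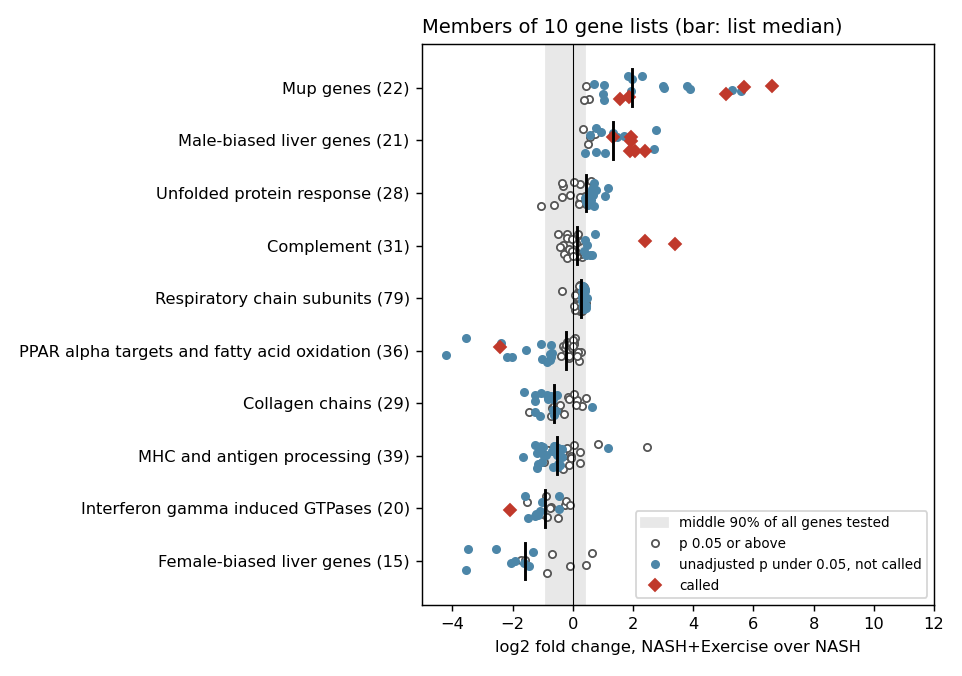
Log2 fold change of NASH+Exercise over NASH for each tested member of 10 gene lists, one point per gene, as diamonds where called, filled circles where nominal and open circles otherwise, with a bar at the list median and grey shading from -0.91 to 0.42, the middle 90% of all genes. Mup and male-biased genes lie mostly to the right and interferon, collagen, MHC and female-biased genes mostly to the left, and of the 10 medians only that of complement changes sign when libraries are scaled by their totals alone.

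Orm3, an orosomucoid, was at 34, 35.8 and 26.7 CPM in NASH and 62.1, 119.9 and 107 CPM in NASH+Exercise, with 1.93, 1.89 and 2.65 CPM in Control. It rose, and trained mouse 8 was the nearest of the trained mice to the NASH mice. The acute-phase response, in which IL6 and glucocorticoids raise secreted proteins of the hepatocyte, was not uniformly higher. Of 25 tested genes, 5 were nominal and higher and 2 nominal and lower (4.6% and 10.7% over all genes). Saa4, a constitutive serum amyloid, was at 355, 501 and 435 CPM in NASH and 691, 1023 and 1197 CPM in NASH+Exercise and Steap4, a metalloreductase, was at 277, 292 and 272 CPM in NASH and 361, 615 and 530.4 CPM in NASH+Exercise, both apart. Saa1, a strongly induced amyloid, was at 376, 459.7 and 426 CPM in NASH and 403, 1183 and 846 CPM in NASH+Exercise. Its near-copy Saa2 was at 222, 243 and 273 CPM in NASH and 219, 647 and 513 CPM in NASH+Exercise, and in both trained mouse 8 lay among or just below the NASH mice. Hpx, Fga and Hp, the 3 members with the highest CPM, were highest in trained mouse 18. Hpx, which binds heme, was at 11487, 8440.2 and 9369 CPM in NASH and 9442, 14308 and 10030.1 CPM in NASH+Exercise, and Fga, a fibrinogen chain, was at 8592, 7113 and 7149.99 CPM in NASH and 7966, 13269.7 and 8484 CPM in NASH+Exercise. Cd14 and Il1rn, which macrophages also make, were lower in mean. Cd14 was at 29.5, 30.1 and 25.5 CPM in NASH and 20.6, 24.1 and 13.3 CPM in NASH+Exercise, and Il1rn was at 25, 22.4 and 29.2 CPM in NASH and 19.6, 16.2 and 11.4 CPM in NASH+Exercise.

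C4a, the sex-limited copy of complement component 4, was at 16, 11.8 and 20.02 CPM in NASH and 136, 129 and 239 CPM in NASH+Exercise. The groups were far apart, a rise of 3.40 ± 0.45 on the log2 scale, and Control was at 23.3, 18.1 and 6.63 CPM. RefSeq lists it as a transcribed pseudogene at chr17:34809092-34823460 (GRCm38.p6). Its neighbour C4b, the functional gene, shares 95.8% of its transcript and runs of up to 433 bases with it, and was at 2152, 1519 and 1842 CPM in NASH and 1936, 2355 and 2102 CPM in NASH+Exercise. The split of reads between the copies is uncertain, and its part in the C4a values was not tested. Counting C4a and Susd4, 9 of 31 complement genes were nominal and higher and none was nominal and lower. The terminal component C9 was at 404, 411 and 381 CPM in NASH and 595, 610.4 and 642 CPM in NASH+Exercise. Its partner C8b was at 284, 231 and 283 CPM in NASH and 376, 419 and 521 CPM in NASH+Exercise. Hc, complement C5, was at 1069.6, 916 and 989 CPM in NASH and 1285, 1517 and 1269 CPM in NASH+Exercise, and the groups of these 3 did not overlap. C3, with the highest CPM of the list, was at 12500.2, 8484 and 9722 CPM in NASH and 9358, 11766 and 9003 CPM in NASH+Exercise and overlapped. The median of the group was 0.15, and -0.05 when libraries were scaled by their totals alone, so the sign of the group's median depends on the scaling.

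Chaperones and foldases of the endoplasmic reticulum were higher in mean in 22 of 28. Of the 28 tested genes of the unfolded protein response, 14 were nominal and higher, 0 were nominal and lower and none was called, with a median of 0.44, or 0.24 when libraries were scaled by their totals alone (4.6% nominal and higher over all genes). Xbp1, the transcription factor of the response, was at 278, 251 and 241 CPM in NASH and 439, 367 and 385 CPM in NASH+Exercise. Pdia6, a disulfide isomerase, was at 182, 176 and 171 CPM in NASH and 268, 308 and 327 CPM in NASH+Exercise. The chaperone Hspa5, also named BiP, was at 583, 623 and 375 CPM in NASH and 965, 679 and 783 CPM in NASH+Exercise, and its cofactor Dnajb11 was at 74.8, 71.4 and 61.7 CPM in NASH and 105, 104 and 118 CPM in NASH+Exercise. Creld2, a secreted ER stress protein, was at 39.1, 37 and 22 CPM in NASH and 80.6, 53.1 and 88 CPM in NASH+Exercise. In all 5 genes every trained mouse was above every NASH mouse, and the Control values of 197, 243 and 189.97 CPM for Xbp1 and 107, 166 and 106 CPM for Pdia6 were close to or below those of NASH. Calr, a calcium-binding chaperone, was at 742, 719 and 702 CPM in NASH and 877, 1107 and 1131 CPM in NASH+Exercise. Herpud1, which serves the degradation of misfolded proteins, was at 576, 343 and 410.05 CPM in NASH and 409.9, 399 and 961 CPM in NASH+Exercise, highest in trained mouse 22.

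The ER stress response element, CCAAT and CCACG with 9 free bases between them, is the motif through which ATF6 acts. It was found in the 250 bases upstream, on either strand, in 0.113% of 32851 promoters and in 8 of the 26 members that had a promoter in the table (Pdia6, Creld2, Dnajc3, Syvn1, Hspa5, Calr, Canx and Hsp90b1). Those of Hspa5, the central chaperone of the compartment, and of Creld2, with the largest log2 fold change of these 8, are printed with the element in capitals. It begins 65 bases before the start of Hspa5, and 126 bases before that of Creld2, where it reads on the opposite strand. As for the GTPases, a member was counted if any of its promoter entries held the element, while the 0.113% counts each entry.
Hspa5, chr2:34771940-34772089, plus strand: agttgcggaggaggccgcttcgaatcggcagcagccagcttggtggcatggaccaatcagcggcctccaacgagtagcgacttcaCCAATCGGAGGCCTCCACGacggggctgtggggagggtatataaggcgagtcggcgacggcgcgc
Creld2, chr15:88819446-88819645, plus strand: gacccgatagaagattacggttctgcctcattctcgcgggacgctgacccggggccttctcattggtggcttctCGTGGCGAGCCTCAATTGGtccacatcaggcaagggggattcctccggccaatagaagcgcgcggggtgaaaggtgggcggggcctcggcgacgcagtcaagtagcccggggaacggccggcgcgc

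Enzymes of cholesterol synthesis, which cholesterol represses through SREBP2, were higher in mean in 22 of 25. Of these, 10 were nominal and higher, none was nominal and lower and none was called, with a median of 0.39, which was 0.18 when libraries were scaled by their totals alone and 0.24 without trained mouse 22. Lss, lanosterol synthase, was at 11.5, 11 and 10.5 CPM in NASH and 14.2, 16 and 16.6 CPM in NASH+Exercise. Ebp, late in the pathway, was at 111, 105 and 121 CPM in NASH and 139, 175 and 194 CPM in NASH+Exercise. Sc5d, also late, was at 143, 134 and 127 CPM in NASH and 168, 185 and 187 CPM in NASH+Exercise. The groups did not overlap for these 3. Idi1, an isoprenoid enzyme, was at 0.582, 1.13 and 0.595 CPM in NASH and 1.75, 1.32 and 1.71 CPM in NASH+Exercise, against 4.24, 3.5 and 7.76 CPM in Control. Among genes of fatty acid and triglyceride synthesis, 5 of 18 were nominal and higher. Srebf1, their main transcription factor, was at 215, 205 and 204 CPM in NASH and 312, 313 and 468 CPM in NASH+Exercise. Fasn, fatty acid synthase, was at 131, 141 and 122 CPM in NASH and 176, 165 and 403 CPM in NASH+Exercise. Thrsp, a lipogenic gene under thyroid hormone and ChREBP, was at 9.02, 14.7 and 12.2 CPM in NASH and 27.3, 20.6 and 199 CPM in NASH+Exercise, so that its mean rests mostly on trained mouse 22. Scd1, the stearoyl desaturase, was at 11039, 6663 and 7133 CPM in NASH and 6739.5, 9778 and 11784 CPM in NASH+Exercise and overlapped.

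In bile acid synthesis Cyp7b1 was the single called gene. Cyp7a1, the rate-limiting enzyme of the classical path, was low and scattered at 2.12, 17 and 6.46 CPM in NASH and 30.1, 11.3 and 39.3 CPM in NASH+Exercise. Cyp2c70, which makes muricholic acids in mice, was at 679.9, 582 and 512 CPM in NASH and 879, 1051 and 1431 CPM in NASH+Exercise, with both NASH groups above the Control level of 183, 200.9 and 131 CPM. Cyp27a1, which begins the alternative path, was at 315, 294 and 344 CPM in NASH and 369.7, 454 and 472 CPM in NASH+Exercise. Of the 16 members, 5 were nominal and higher and none was nominal and lower, with a median of 0.33. On the side of the bile acid receptor FXR, Nr0b2, its induced repressor SHP, was at 78.7, 74.3 and 48.8 CPM in NASH and 46.2, 39 and 48.5 CPM in NASH+Exercise. The export pump Abcb11 was at 473, 356 and 436 CPM in NASH and 476, 477 and 423 CPM in NASH+Exercise and the basolateral transporter Abcc3 was at 253, 183 and 205 CPM in NASH and 179.8, 119 and 109.97 CPM in NASH+Exercise. Slco1a4, an uptake transporter that is higher in females, was at 41.3, 25.7 and 52.1 CPM in NASH and 20.6, 14.9 and 11.7 CPM in NASH+Exercise, and the male-biased Slco1a1 was at 76.1, 82.7 and 158 CPM in NASH and 207, 177 and 159 CPM in NASH+Exercise.

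Thyroid hormone handling was the question behind the study's interest in Dio1, the deiodinase that makes T3 in liver. The study reported more Dio1 mRNA in trained than in sedentary NASH livers by sequencing with DESeq2 and by PCR. It also reported a larger area of Dio1 protein staining in the trained livers. Its other evidence was the enrichment of a thyroid hormone metabolism gene set in those livers. It further reported a brief increase of free T3 and T4 in serum right after a treadmill run, in a separate set of mice. Dio1 was at 26.5, 42.2 and 31 CPM in NASH and 64.7, 134 and 179.6 CPM in NASH+Exercise, so the groups did not overlap, while Control at 54.9, 76.5 and 27.2 CPM overlapped both. It was not called. Its adjusted p (edgeR quasi-likelihood, Benjamini-Hochberg) was 0.128, ran from 0.0654 to 0.346 over the other edgeR fits, and was 0.107 with limma voom and 8.19e-08 with DESeq2 on the 6 mice. Thra, the minor thyroid hormone receptor of the liver, was at 17.9, 18 and 17.8 CPM in NASH and 15.1, 11.6 and 10.5 CPM in NASH+Exercise. The transporter Slc16a10 was at 96.3, 98.9 and 86.1 CPM in NASH and 115, 149 and 118 CPM in NASH+Exercise. Ttr, which carries thyroxine in plasma, was at 4775, 3141 and 4627 CPM in NASH and 4642, 5171 and 6429 CPM in NASH+Exercise. The study drew 21 T3 response genes from livers of other experiments. It reported them as enriched with training by gene set enrichment analysis and as scoring higher by gene set variation analysis. Neither of its values was under 0.05, and both measures differ from a median fold change. Here 15 of the 21 passed the filter, 6 were nominal and higher, none was nominal and lower and none was called. The median was 0.09, and -0.13 when libraries were scaled by their totals alone, so its sign depends on the scaling, and without trained mouse 22 it was -0.10. Besides Dio1 and Thrsp, the nominal members were the esterase Ces4a, the anion transporter Slc22a7, the NF-kB cofactor Bcl3 and the membrane protein Tlcd2. Ces4a was at 0.956, 0.504 and 1.11 CPM in NASH and 1.83, 3.35 and 5.26 CPM in NASH+Exercise. Slc22a7 was at 7.07, 7.18 and 4.38 CPM in NASH and 18.8, 29.7 and 26.8 CPM in NASH+Exercise. Bcl3 was at 44, 62.5 and 54.3 CPM in NASH and 69.9, 124 and 125 CPM in NASH+Exercise. Trained mouse 8 was the lowest trained mouse for 5 of these 6.

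The cytokine genes Il1b and Tnf and the macrophage gene Adgre1 were also measured by PCR in the study. By that PCR it reported all 3 as significantly lower in trained than in sedentary NASH mice. Its text does not say whether the PCR used the same mice as the sequencing. Il1b was at 7.19, 6.09 and 7.1 CPM in NASH and 7.86, 4.91 and 3.8 CPM in NASH+Exercise, Tnf was at 3.41, 2.91 and 3.7 CPM in NASH and 2.66, 1.94 and 1.27 CPM in NASH+Exercise and Adgre1, the macrophage surface protein F4/80, was at 37.2, 24 and 31.5 CPM in NASH and 28.4, 18.9 and 24.4 CPM in NASH+Exercise. The groups did not overlap for Tnf and did for the other two, and none of the 3 was nominal. Of 23 feedback and target genes of TNF, IL1 and NF-kB, 4 were nominal and lower and 2 nominal and higher. Over all genes the shares were 10.7% and 4.6%. Chemokines and their receptors showed 12 of 41 nominal and lower and 1 nominal and higher, with a median of -0.45. Ccl5, which draws T cells, was at 12.1, 18.5 and 12 CPM in NASH and 6.98, 7.27 and 4.83 CPM in NASH+Exercise. The monocyte receptor Ccr2 was at 8.52, 16.8 and 13 CPM in NASH and 6.2, 3.54 and 2.24 CPM in NASH+Exercise. Cx3cr1, another, was at 8.94, 14.6 and 9.56 CPM in NASH and 6.72, 4.01 and 2.53 CPM in NASH+Exercise, and the groups of these 3 did not overlap. Cxcl1, a neutrophil attractant, was the one nominal gene in the other direction at 34.5, 36.4 and 36.1 CPM in NASH and 58.3, 91.3 and 233 CPM in NASH+Exercise, highest in trained mouse 22. Cxcl12 was at 268, 279 and 327 CPM in NASH and 309.8, 327 and 283 CPM in NASH+Exercise.

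Markers of blood-borne and matrix-forming cells were lower in mean as well. In whole liver, fewer cells of a type and less RNA per cell cannot be told apart. Macrophage and monocyte markers were lower in mean in 14 of 14, 7 nominally, and summed to 1067 to 1196 CPM in NASH and 799 to 919.8 CPM in NASH+Exercise. Ly6c2, a mark of inflammatory monocytes, was at 7.94, 5.7 and 9.61 CPM in NASH and 3.32, 2.6 and 2.19 CPM in NASH+Exercise, and Lyz2 was at 288, 417 and 279 CPM in NASH and 249, 220.5 and 232 CPM in NASH+Exercise. Markers of lipid-associated macrophages, which gather around fat-laden hepatocytes, were nominal and lower in 10 of 15 and summed to 1246, 2085 and 1226 CPM in NASH and 1066, 926 and 1028 CPM in NASH+Exercise, with NASH mouse 19 far above the others. Anxa5 was at 173, 194 and 143 CPM in NASH and 105, 92.6 and 94.5 CPM in NASH+Exercise and Lgals3 at 53.9, 105 and 74.2 CPM in NASH and 51.2, 35.6 and 40.4 CPM in NASH+Exercise. Of 12 markers of Kupffer cells, the resident macrophages, 1 was nominal and lower (10.7% over all genes). Clec4f, found on Kupffer cells alone, was at 121, 57.2 and 109.7 CPM in NASH and 107, 96.1 and 123 CPM in NASH+Exercise, and Cd5l was at 347, 248 and 309 CPM in NASH and 271, 252 and 285 CPM in NASH+Exercise.

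T and NK cell markers were nominal and lower in 12 of 24 tested, at summed levels of 59.7 to 64.8 CPM in NASH and 34.5 to 42.9 CPM in NASH+Exercise. Gzmb, granzyme B, was at 2.78, 2.33 and 2.47 CPM in NASH and 0.917, 0.755 and 0.536 CPM in NASH+Exercise, and Cd3e was at 2.12, 2.52 and 1.96 CPM in NASH and 0.96, 1.23 and 1.02 CPM in NASH+Exercise. Zap70 and Cd4 overlapped, at 2.91, 5.67 and 3.06 CPM in NASH and 4.76, 4.15 and 4.83 CPM in NASH+Exercise and at 3.45, 3.84 and 2.72 CPM in NASH and 2.84, 3.97 and 4.73 CPM in NASH+Exercise. Neutrophil markers summed to 82.5 to 85 CPM in NASH and 49.4 to 68.7 CPM in NASH+Exercise. Of the 17 tested, 4 were nominal and lower (10.7% over all genes). Without trained mouse 22 their median was -0.07 in place of -0.36. B cell markers summed to 16.9 to 25.6 CPM in NASH and 11.6 to 18.2 CPM in NASH+Exercise, so the groups overlapped. Of these 11 markers 1 was nominal and lower, near the share of 10.7% over all genes. Stellate cell markers, several of them collagens counted above, were nominal and lower in 9 of 21 and summed to 688 to 865 CPM in NASH and 533 to 649 CPM in NASH+Exercise. Cygb, a globin of stellate cells that is not a matrix gene, was at 21.2, 26.8 and 25 CPM in NASH and 16.9, 16.1 and 16.6 CPM in NASH+Exercise. Cholangiocyte markers were lower in mean in 12 of 12, with 5 nominal, but NASH mouse 19 alone was high, at a summed level of 149 CPM against 94.2 and 68.6 CPM in the other sedentary mice. Without NASH mouse 19 their median was -0.42 in place of -1.03. Sinusoidal endothelial markers had 0 of 16 nominal in either direction. Erythroid markers, a sign of blood left in the tissue, summed to 441 to 745 CPM in NASH and 598 to 815 CPM in NASH+Exercise. The part of these cell markers in the interferon, MHC, chemokine and matrix results was not tested.

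**Figure D4:**
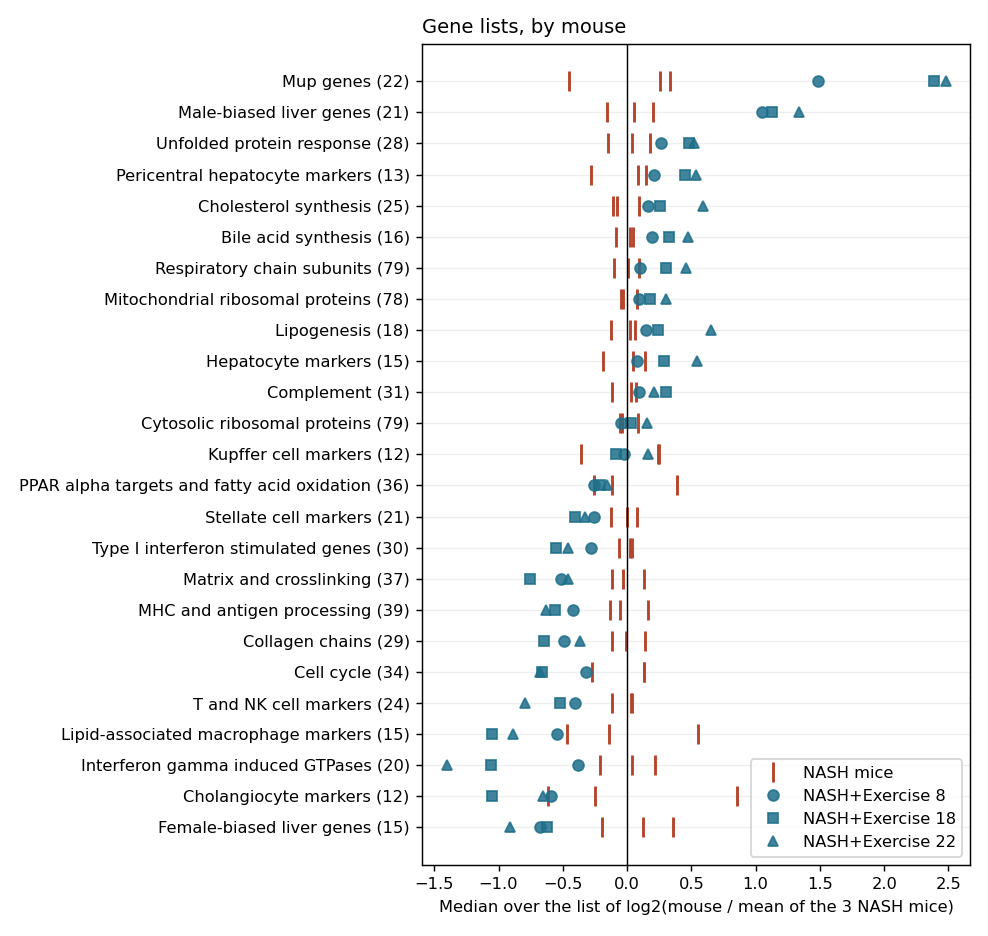
Median over the tested members of each of 25 gene lists of log2 of a mouse's level over the mean of the 3 NASH mice, with NASH mice as ticks and trained mice 8, 18 and 22 as circle, square and triangle. In the Mup and male-biased lists the trained mice stand clear to the right, in the interferon gamma list to the left, and NASH mouse 19 stands out for lipid-associated macrophage and cholangiocyte markers. The list-wise medians of complement and of both kinds of ribosomal protein turn negative when libraries are scaled by their totals alone.

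Genes of dividing cells were lower in mean in 32 of 34. Of these cell cycle genes, 15 were nominal and lower, none was nominal and higher and none was called, with a median of -0.71. Top2a was at 3.45, 4.54 and 5.61 CPM in NASH and 2.84, 1.56 and 1.22 CPM in NASH+Exercise. The cyclins Ccna2 and Ccnb1 were at 2.12, 4.11 and 3.36 CPM in NASH and 1.75, 1.23 and 1.27 CPM in NASH+Exercise and at 1.08, 1.59 and 1.32 CPM in NASH and 0.786, 0.33 and 0.146 CPM in NASH+Exercise. Replication genes that non-dividing cells also express overlapped, with Pcna at 23.4, 20.7 and 26.1 CPM in NASH and 24.1, 21.2 and 22 CPM in NASH+Exercise and Mcm7 at 15.3, 12.3 and 15.8 CPM in NASH and 13.6, 15.7 and 11.3 CPM in NASH+Exercise.

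Of 13 pericentral markers, which mark hepatocytes next to the central vein, all were higher in mean and 4 nominally, with a median of 0.42. Cyp1a2 was at 276, 307 and 293 CPM in NASH and 462, 516 and 913 CPM in NASH+Exercise, Cyp2e1 was at 4679.97, 5123 and 6167 CPM in NASH and 6522, 6707 and 8081 CPM in NASH+Exercise and Glul, which marks the innermost layer, was at 656, 787 and 834 CPM in NASH and 837, 1034 and 1092 CPM in NASH+Exercise. The 12 periportal markers were split, with 1 nominal and higher, 1 nominal and lower (4.6% and 10.7% over all genes) and a median of -0.03. Cyp2f2 was at 1106, 547 and 950.3 CPM in NASH and 1418, 1288 and 2016 CPM in NASH+Exercise and Pck1, the gluconeogenic enzyme, was at 2105, 1012 and 2431 CPM in NASH and 855, 600.4 and 2095 CPM in NASH+Exercise. Albumin, Alb, was at 72432, 50602 and 74431 CPM in NASH and 68516, 50740.0 and 68374 CPM in NASH+Exercise and did not separate the groups. Among carboxylesterases, 5 of 15 were nominal and higher, such as Ces3b at 303, 182 and 223 CPM in NASH and 483, 438 and 592 CPM in NASH+Exercise and Ces3a at 1141, 1303 and 1251 CPM in NASH and 1834, 2119 and 2629.9 CPM in NASH+Exercise. Among 43 genes of P450 families 2 and 3, 9 were nominal and higher and 7 nominal and lower. Over all genes the shares were 4.6% and 10.7%. Cyp2c50 was at 427, 357 and 440.3 CPM in NASH and 659, 625 and 766 CPM in NASH+Exercise, while Cyp3a11, induced by the xenobiotic receptor PXR, was at 2965, 3108 and 3167 CPM in NASH and 2509.9, 1507 and 2076 CPM in NASH+Exercise.

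Mitochondrial genes showed a small difference whose size depends on the scaling of the libraries and on the trained mouse. Nuclear genes for respiratory chain subunits were higher in mean in 78 of 79, 19 nominally and none called, with a median log2 fold change of 0.28 that became 0.07 when libraries were scaled by their totals alone. These subunit genes summed to 7861.5, 7096.7 and 8198.4 CPM in NASH and 8310.5, 9387.1 and 10510 CPM in NASH+Exercise. Trained mouse 8 was thus close to NASH mouse 20, and without trained mouse 22 the median was 0.20. Ndufb5, of complex I, was at 49.5, 44.9 and 50.3 CPM in NASH and 55.4, 65.3 and 68 CPM in NASH+Exercise. Atp5b, of the ATP synthase, was at 712, 585 and 690.5 CPM in NASH and 708, 788 and 933 CPM in NASH+Exercise. The 78 mitochondrial ribosomal proteins had a median of 0.19, which turned to -0.02 under that scaling, and the 79 cytosolic ones had a median of 0.05, which turned to -0.16. Scaling by totals alone moved the median of all genes to -0.23, so that relative to all genes the respiratory chain stayed 0.21 to 0.44 higher over all the fits tried. Rps2, with the highest CPM of the ribosomal protein genes, was at 617, 568 and 639 CPM in NASH and 602, 729.7 and 818 CPM in NASH+Exercise.

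The medians of the main groups were taken again with each of the 9 mice left out. That of the Mup genes lay between 1.76 and 2.40, and was 1.88 without trained mouse 18, the mouse with low Nr1d1 and high Cry1. The male-biased genes lay between 1.16 and 1.39, with 1.31 without that mouse. The unfolded protein response lay between 0.38 and 0.55. Among groups that were lower, the collagen chains lay between -0.70 and -0.51 and the MHC genes between -0.58 and -0.47. The interferon gamma GTPases ranged more widely, from -1.37 without trained mouse 8 to -0.68 without trained mouse 22. The PPAR alpha median was -0.07 without NASH mouse 20, which had the highest Cyp4a levels, and the lipid-associated macrophage median was -0.53 without NASH mouse 19. All of these medians kept their sign in each of the 9 fits and when libraries were scaled by their totals alone. That scaling lowered every one of them, and it moved the PPAR alpha median to -0.44, that of TGF-beta and YAP targets to -0.57, that of bile acid synthesis to 0.12 and that of the pericentral markers to 0.21.

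Set beside Control, the genes named above fell into patterns that differ by group. Mup1, Mup7, Mup12, Mup10, Mup22 and Susd4 stood between NASH and Control or within the Control range in the trained mice. Col1a1, Col1a2, Col3a1, Tgtp1 and the summed macrophage and monocyte markers were lower than in NASH and still above Control. Fgf21, Ugt1a9 and the Cyp4a genes stood further from Control with training than without it. C4a, Cyp2u1, Nudt7, Orm3, Xbp1, Pdia6, Srebf1 and Cyp2c70 were higher with training than in either other group. These orders are given as values side by side, since the NASH mice are shared by both comparisons and no test was made across them.

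**Figure D5:**
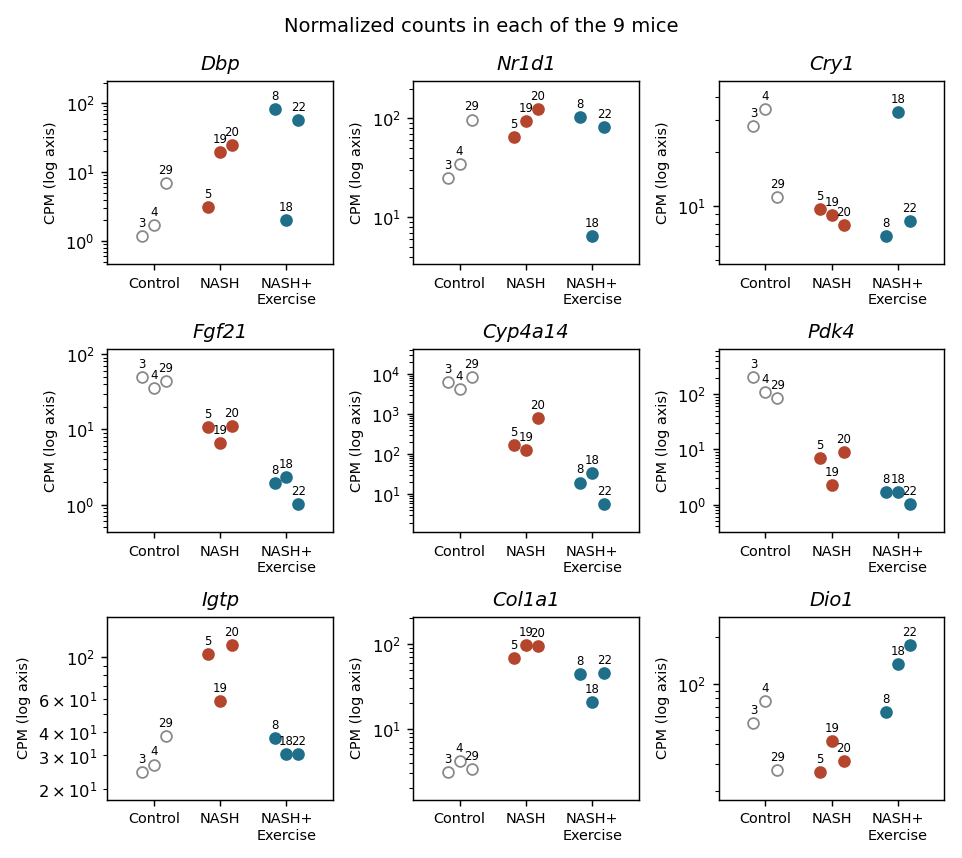
CPM on a log axis of 9 selected genes in all 9 mice, one point per mouse and labelled with its number, by group. Among the 6 NASH mice trained mouse 18 stands apart for Nr1d1 and Cry1 and lies beside NASH mouse 5 at the low end for Dbp, the trained mice lie furthest from Control for Fgf21, Cyp4a14 and Pdk4, and lie between NASH and Control for Col1a1.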

How the data were processed

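Liver mRNA of 9 mice was sequenced. Each file gives 3 values a gene per the file headers. The FPKM values (scaled for transcript length and depth) and the TPM values (scaled to a fixed total) were made by the authors and were not tested. One deposited table repeats all 9 mice, and 0 of 428304 values compared differed. The submitters' processing notes name HISAT2 2.1.0, Bowtie2 2.2.5, RSEM 1.2.8 and GRCm38.p6, in no stated role. RSEM shares reads among similar genes, which affects near-identical copies.

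The estimated counts deposited by the authors were rounded. Of 17846 Entrez genes, 17728 were matched to a symbol in RefSeq (GRCm38.p6). Genes were filtered with filterByExpr (count minimum 10, total 15), which left 13619, scaled by TMM and fitted with edgeR 4.0.16 (R 4.3.3, robust quasi-likelihood) over all 9 mice, with no covariate beside the group. P-values were adjusted by Benjamini-Hochberg over all tested genes. Alternatives were RLE factors, library sizes alone, 2 other filters, the 6 mice alone, DESeq2 1.42.0, limma 3.58.1 voom, a fit without robust estimation, other thresholds and leaving out each mouse. The medians of gene lists under these settings were added after the data were seen. The fit was tested on simulated data. Depth was 20085976 to 22495408 counts per mouse.

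The groups, the gene lists and the tests were chosen with earlier results of these data known. Genes were named by a rule: the called genes, the 10 uncalled genes with the smallest p in each direction among those with a log2 fold change beyond 1 and groups that did not overlap, the member of each list with the smallest p and the 3 with the highest mean CPM, genes the study names, and near-identical copies. Of the 245 genes that the rule picks, 119 are named and the others are not reported here. Of 178 genes named, 59 fell outside it and were chosen after their values were seen. Motifs were searched in RefSeq promoter windows, and transcripts were compared in GENCODE vM21.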

Additional observations from a re-analysis of the deposited data

How the results depend on the processing

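The count of called genes depended on the test and on single mice more than on scaling. With RLE size factors 19 genes were called, with library sizes alone 15 (10 higher and 5 lower), with at least 1 CPM in 3 mice 20, without the robust fit 21 and with limma voom 22. Without the filter, 8 genes were lower, and with the 6 mice alone 2 were. DESeq2 on the 6 mice called 204, 78 higher and 126 lower, and an adjusted p of 0.1 in edgeR gave 39, 24 higher and 15 lower. With one mouse left out in turn the count ran from 0 to 34, with 0 to 28 higher and 0 to 6 lower. All 19 genes were also called by DESeq2, 18 by voom and 14 under library sizes alone, and none changed sign in any fit. The cause of these differences was not tested. No paired analysis was possible because the groups share no replicate number.

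Signs turned only for genes and lists that were not called. Library sizes alone gave -0.16 for B2m, -0.0268 for Cd4, -0.15 for Col18a1, -0.10 for Fn1, -0.0381 for Id2, -0.12 for Igf1, -0.0253 for Scd1, -0.12 for Cxcl12, -0.0699 for Abcb11, -0.00644 for Clec4f, -0.14 for Bst2, -0.13 for the T3 response list, -0.0155 for the mitochondrial ribosomal proteins, -0.16 for the cytosolic ribosomal proteins and -0.0537 for the complement list. A fit of the 6 mice gave 0.00484 for C3 and 0.00142 for the periportal hepatocyte markers. DESeq2 on the 6 mice gave 0.0183 for C3 and 0.0177 for the periportal hepatocyte markers. With one mouse left out in turn, log2 fold changes ran over -0.21 to 0.0595 for Alb, -0.0208 to 0.12 for B2m, -0.15 to 0.14 for C3, -0.0299 to 0.15 for Col18a1, -0.22 to 1.24 for Cry1, -0.00267 to 0.25 for Fn1, -0.15 to 0.00612 for H2-K1, -0.00121 to 0.34 for Hpx, -0.21 to 0.0215 for Mcm7, -0.12 to 0.0278 for Pcna, -0.000572 to 0.45 for Scd1, -0.23 to 0.0866 for Gm4951, -0.0686 to 0.38 for Clec4f, -0.18 to 0.044 for Cyp39a1, -0.13 to 0.65 for Herpud1, -0.0648 to 0.20 for Bst2, -0.72 to 0.0421 for Gvin1, -0.10 to 0.21 for the T3 response list, -0.00415 to 0.11 for the cytosolic ribosomal proteins and -0.0671 to 0.0708 for the periportal hepatocyte markers. For Cry1 the sign turned without trained mouse 18.

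With 3 mice a group, differences that are small against the spread between mice were not detectable. Genes with few counts, such as several female-biased and cell cycle genes, rest on few reads. Standard errors of near-identical copies do not include the error of assigning reads to them.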
